A study of Mus musculus with 6 samples.

Results

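MicroRNA (miRNA) gene loci were followed in total RNA of bone marrow-derived macrophages (BMDMs), as the signal of primary transcripts that run through them. BMDMs of genotype C57BL/6, with no other allele named for either group, were given PBS as the control or LPS, the cell wall component of Gram-negative bacteria, and were collected after 1 h, with 3 libraries in each group. BMDMs are macrophages grown from bone marrow in culture and are a model of macrophages without the tissue in which they normally live. A locus was included when its row in the gene count table was annotated as a miRNA gene and held at least 60 counts over the 6 libraries, so the members were selected on this count total. Of 2202 miRNA rows in the table, 677 held any count and 78 passed this minimum. Of the 78 loci, 24 held 60 or more counts in both groups, 15 in the LPS group only, 11 in the PBS group only and 28 in neither group alone. Loci that passed through a single group were more likely to differ, though not all of them were called. Counts over the 78 are therefore a description.

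A miRNA is cut from a longer primary transcript. The nuclear enzyme Drosha and its partner Dgcr8 release a hairpin, Dicer1 trims the hairpin, and the short mature RNA is loaded on an Argonaute protein, where bases 2 to 8, the seed, pair with target mRNAs. Many miRNA genes lie in introns of a host gene and are transcribed with it, while others have primary transcripts of their own. In macrophages, miR-155, miR-146a, miR-132, miR-221 and miR-222 are known for their responses to LPS. Libraries of total RNA built from long fragments do not capture mature miRNAs, so counts on these loci, which were 51 to 188 bp long, concern precursor or host transcript RNA, and no mature miRNA was measured here.

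The mature sequences below belong to the loci on which the results turn, and are taken from RefSeq on GRCm38, with the seed in capitals. Those of the loci that rose were:
miR-221-3p (Mir221): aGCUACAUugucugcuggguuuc
miR-222-3p (Mir222): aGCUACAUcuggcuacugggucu
miR-212-3p (Mir212): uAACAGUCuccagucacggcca
miR-132-3p (Mir132, just under the count minimum): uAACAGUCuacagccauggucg
miR-146a-5p (Mir146): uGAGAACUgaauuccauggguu
miR-29a-3p (Mir29a): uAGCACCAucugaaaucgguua
miR-3074-5p (Mir3074-2): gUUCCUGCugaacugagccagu
Those of loci that fell were:
miR-339-5p (Mir339): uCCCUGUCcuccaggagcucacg
miR-3971 (Mir3971): cUCCCCACcccuguaccaguga
miR-6374 (Mir6374): aAGUUAUAagcuaguuggugcu
Those of miRNAs whose own row stayed empty under an exon of a host transcript were:
miR-155-5p (Mir155): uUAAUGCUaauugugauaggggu
miR-21a-5p (Mir21a): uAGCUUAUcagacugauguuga
RefSeq held a mature sequence for 49 of the 78 loci. Mir221 and Mir222 share the seed GCUACAU, and Mir212 and Mir132 share AACAGUC, so the products of each pair can pair with the same seed matches. Mir98 and Mirlet7c-1, both members of the let-7 family, share GAGGUAG.

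The libraries held between 37787611 and 41516330 counts. Macrophage markers summed to between 30730 and 37320 CPM in every library (counts normalized by library size and TMM factor), and the lists of the 7 other cell types to at most 52.9 CPM. The summed neutrophil list held 37.7 to 40.6 CPM in PBS and 50.5 to 52.9 CPM in LPS, and the T cell list 20.6 to 22.5 and 30.6 to 31.0 CPM. Nearly all of the T cell sum was Cd4, with means of 21.2 CPM in PBS and 30.4 CPM in LPS. Cd3e, Cd3d, Cd3g and Cd8a were too low to be tested and overlapped between groups. The dendritic cell list (Flt3, Zbtb46 and Xcr1, all 3 called higher) held 1.20 to 1.45 and 4.93 to 6.17 CPM, the endothelial list 35.4 to 38.6 and 44.9 to 48.7 CPM, and the fibroblast list 12.1 to 13.2 and 13.5 to 15.5 CPM. Most of the endothelial sum was Kdr, with means of 34.7 CPM in PBS and 41.1 CPM in LPS. The B cell and erythroid lists overlapped between groups, and the part of these lists in the results was not tested. Most loci were shallow, with a median total of 123 counts over the 6 libraries and a range of 61 to 39856. In bulk RNA, fewer cells of a type and less RNA per cell cannot be told apart.

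LPS changed many of these loci within 1 h. By edgeR's quasi-likelihood test over all genes, where a call needed an adjusted p below 0.05 together with a log2 fold change beyond 1 in either direction, 34 of the 78 loci were higher in LPS, 7 were lower and 37 were not called. Over all 15687 genes tested, 20.9% were called, 10.5% higher and 10.4% lower. The median log2 fold change was 0.38 over the 78 loci and -0.01 over all genes, and the former is the same with Mir212 set to its lower bound. Scaled by library size alone, 27 loci were called higher and 13 lower, and without PBS replicate 1, which was low at several loci described further on, 33 and 7. The groups did not overlap for 49 loci, 36 with LPS higher and 13 with PBS higher, beside 70.5% of all genes. Of the 78 loci, 12 have a near-identical sequence in another annotated gene (90% identity over 90% of the length), and reads of such copies could be split or dropped by the counting. Among the 66 others, 30 were called higher and 6 lower.

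Among the loci that rose were Mir221 and Mir222, a cluster on the X chromosome, and Mir212 on chromosome 11. Mir221 (chrX:19146294-19146388, minus strand) held 168, 158 and 177 counts in PBS replicates 1 to 3 and 1661, 1229 and 1796 counts in LPS replicates 1 to 3. The groups were far apart, at 3.62 ± 0.19 CPM against 46.6 ± 8.0 CPM (SD, n = 3). The log2 fold change was 3.69 ± 0.11 (SE, adjusted p = 2.43e-15 by edgeR). Mir222 (chrX:19146893-19146971, minus strand) held 10, 10 and 12 counts in PBS and 191, 164 and 181 in LPS. Its log2 fold change was 4.52 ± 0.17 (SE, edgeR adjusted p = 8.99e-14), and per kb of locus its level in LPS was 67.7 CPM against 491 CPM for Mir221. With few PBS counts at Mir222, its SE, taken from the test statistic, can understate counting error.

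Neither locus lies inside an annotated gene on its own strand. The nearest gene upstream on the minus strand, Gm14636, a noncoding transcript, ends 10592 bp before Mir221 and 10009 bp before Mir222. Gm14636 held 3534, 3347 and 3686 counts in PBS and 32048, 29735 and 33856 counts in LPS. Its log2 fold change of 3.65 ± 0.04 (SE, edgeR adjusted p = 2.19e-21) lay within the standard error of that of Mir221. It was below that of Mir222, at 4.52 ± 0.17.

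Mir212 (chr11:75173388-75173478, plus strand) had no count in the 3 PBS libraries and 22, 20 and 21 counts in LPS, at least 9.70-fold higher against a floor of 3 counts per library. It lies in an intron of 1700016P03Rik, a noncoding transcript, 828 bp from the start of that gene. The host held 1, 0 and 0 counts in PBS and 121, 106 and 102 counts in LPS, a ratio of 456 with a 95% counting interval of 81.3 to 18070 (exact, counting error only). Both were close to empty before LPS. Mir132, in the same host, held 1, 0 and 0 counts in PBS and 22, 20 and 10 in LPS, a ratio of 72.1 with an interval of 12.4 to 2902, and with 53 counts in all it fell just under the minimum. miR-132 and miR-212 are known as products of a single CREB-responsive transcript.

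**Figure D1:**
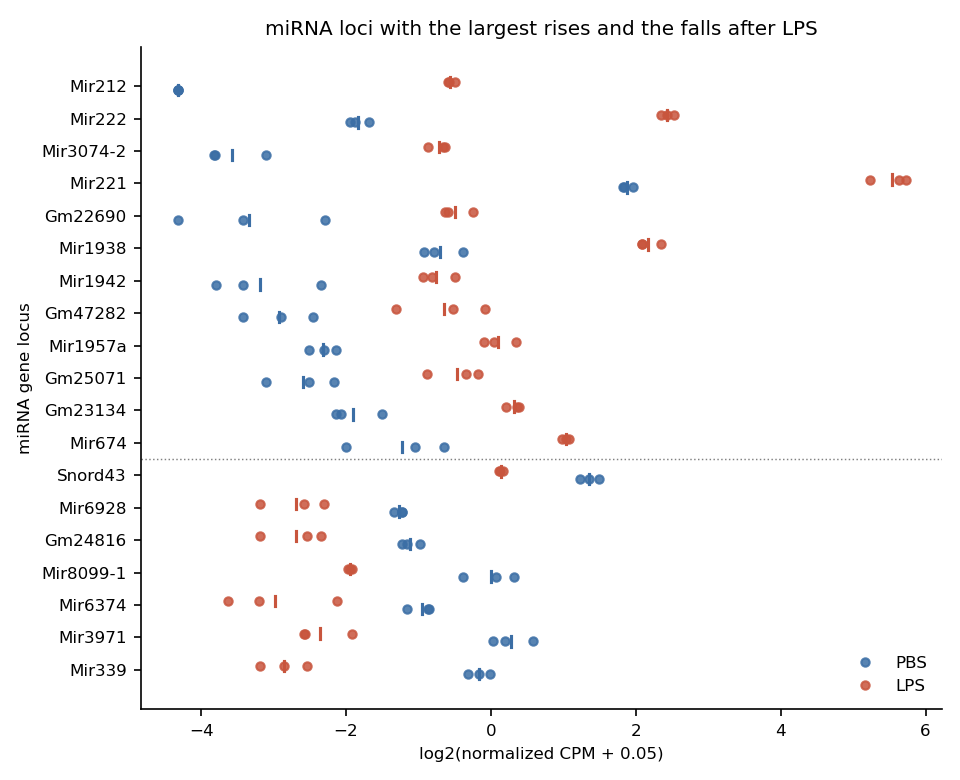
Normalized CPM of the 12 miRNA loci with the largest called rises (above the dotted line) and the 7 called falls (below it), as log2(CPM + 0.05) on the horizontal axis, with a point for each library and a vertical tick for the group mean; blue is PBS and red is LPS, n = 3 each. The groups do not overlap in any of the 19 loci, and Mir212 stands at 0 counts in the 3 PBS libraries.

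Mir146, the gene of miR-146a, a miRNA known to restrain Toll-like receptor signalling, rose without a host (chr11:43374397-43374461, minus strand). It held 16, 19 and 16 counts in PBS and 54, 44 and 39 in LPS. All LPS libraries were above all PBS libraries, and the log2 fold change was 1.89 ± 0.24 (SE, edgeR adjusted p = 1.82e-06). The nearest gene upstream on its strand, Pttg1, ends 45788 bp away and had a log2 fold change of -0.07 ± 0.06 (adjusted p = 0.283). Mir146b, the other gene with the same seed, held at most 4 counts in any library.

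Mir29a (chr6:31062660-31062747, minus strand) held 53, 37 and 33 counts in PBS and 79, 75 and 80 in LPS, a log2 fold change of 1.40 ± 0.18 (SE, edgeR adjusted p = 1.98e-06). Scaled by library size alone, the change was 0.99, under the threshold of size. Gm27019, a lincRNA gene that ends 344 bp before it, held 91, 110 and 74 counts in PBS and 250, 237 and 260 in LPS, a log2 fold change of 1.91. The groups did not overlap in either gene.

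Of the 17 loci without a same-strand host, 8 were called higher and 1 lower, beside 10.5% and 10.4% of all genes. Among the 17, Mir30b overlaps an exon of the same-strand gene Gm26621, which was not counted as a host. Several lay just past the end of a gene that moved in the same direction. Mir3074-2 (chr8:84208825-84208907, minus strand) held 1, 3 and 1 counts in PBS and 20, 19 and 17 in LPS, a ratio of 15.5 with a 95% counting interval of 6.27 to 49.7. It lies 1770 bp past the end of Zswim4, whose counts went from 1746, 1692 and 1600 to 12681, 12764 and 12162, a log2 fold change of 3.37 ± 0.04 (SE, edgeR adjusted p = 4.77e-21). Mir3074-2 shares its place with the hairpin of Mir24-2 on the opposite strand. On the plus strand of that cluster, Mir23a and Mir27a did not pass the edgeR test. Mir23a had a log2 fold change of 0.14 ± 0.24 (adjusted p = 0.626) and Mir27a of 0.27 ± 0.39 (adjusted p = 0.55). Mir24-2 was too low to be tested, with 7, 8 and 7 counts in PBS and 10, 6 and 1 in LPS.

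Mir674 (chr2:117185127-117185226, plus strand) held 28, 9 and 20 counts in PBS and 69, 63 and 68 in LPS, a log2 fold change of 2.27 ± 0.25 (edgeR adjusted p = 2.78e-07). It lies 2847 bp past Spred1, an inhibitor of Ras-ERK signalling, which rose by 1.26 on the log2 scale. Mir8099-1 (chr3:95139060-95139186, minus strand) fell from 57, 45 and 33 counts to 7 in each LPS library, a log2 fold change of -2.20 ± 0.32 (edgeR adjusted p = 7.8e-06). It lies 334 bp past Tnfaip8l2, an inhibitor of innate immune signalling, which went from 5993, 5978 and 5889 counts to 1610, 1543 and 1583, a log2 fold change of -1.44. Mir8099-1 has a near-identical copy, Mir8099-2, and lies opposite an exon of Lysmd1.

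**Figure D2:**
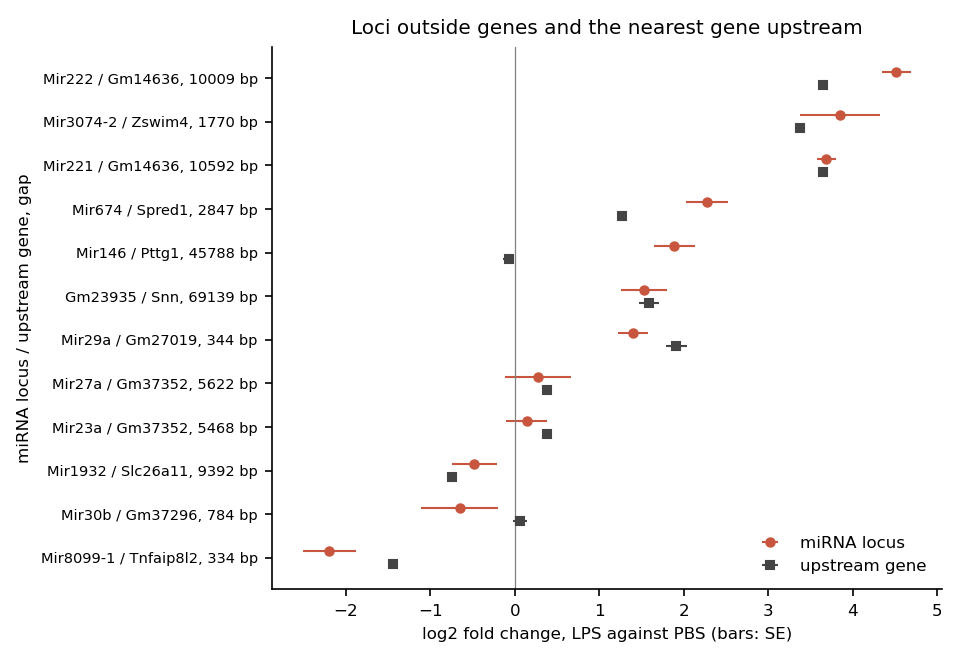
Log2 fold change of LPS against PBS for the 12 miRNA loci without a same-strand host whose nearest upstream gene was tested (red circles) and for that gene (dark squares), with bars for the standard error, n = 3 libraries per group; labels give the gap in bp. Mir222, Mir221, Mir3074-2, Mir674, Mir29a and Gm23935 lie to the right of 0 with their upstream gene and Mir8099-1 to the left with Tnfaip8l2, while Mir146 is at 1.89 beside -0.07 for Pttg1.

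The other 61 loci lie inside a host gene on the same strand, 56 in an intron and 5 on an exon, in 60 different hosts. Host transcripts were measured over their exons and the loci mostly within introns, so the pair compares RNA of both parts. Of the hosts, 11 were called higher and 0 lower by edgeR, while 56 passed the adjusted p alone (48 higher and 8 lower), beside 10.5% of all genes called higher, 10.4% called lower and 67.7% past the adjusted p alone. Among the hosts, 49 were higher and 9 lower at an unadjusted p under 0.05. The share of all genes at that p was not computed, so these counts are a description. Hosts held between 330 and 263090 counts over the 6 libraries, and the part of depth in these shares was not tested. DESeq2 and limma voom also called 11 higher and 0 lower, and with library size alone the split was 6 higher and 1 lower. Of the 26 loci with a host that were called higher, 10 had a host that was called higher too, and 16 had a host that was not called, at log2 fold changes between 0.07 and 0.94. The 6 loci with a host that were called lower had hosts at log2 fold changes between -0.18 and 0.73, none of them called. Across the 56 intronic loci, the log2 fold changes of locus and host had a Spearman rho of 0.60, given as a description since all share the same 6 libraries, and they had the same sign in 37.

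**Figure D3:**
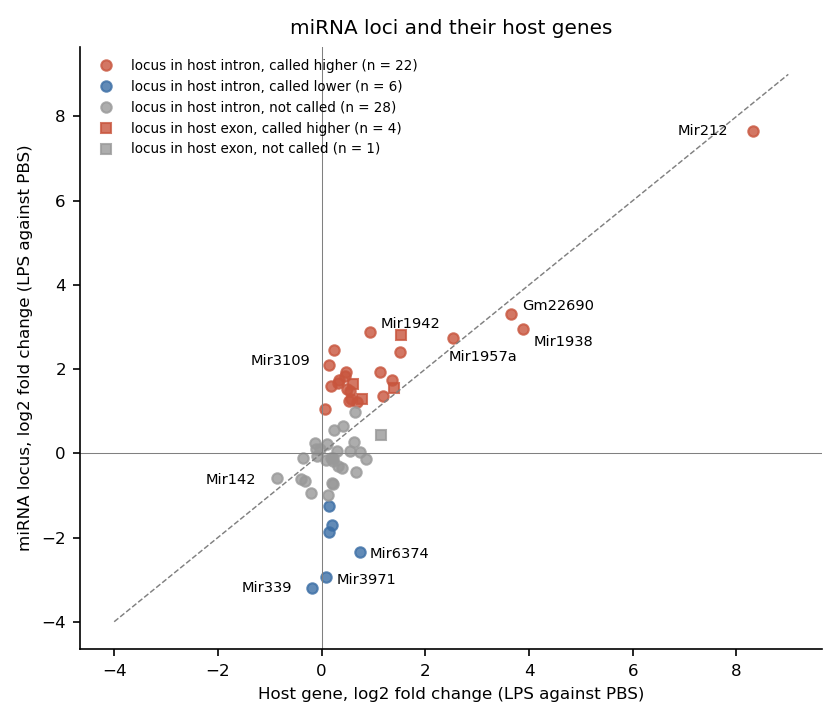
Log2 fold change (LPS against PBS) of each miRNA locus on the vertical axis against that of its host gene on the horizontal axis, for 56 intronic loci (circles) and 5 exonic loci (squares); red is called higher, blue called lower and grey not called, and the dashed line marks equal change. Gm22690 and Mir1957a lie near the line with strongly rising hosts, and Mir1938 lies below it, at 2.95 beside 3.89. Mir212 is drawn at its fitted 7.65 beside 8.31, although it held 0 counts in the PBS libraries. The loci called lower sit under hosts between -0.18 and 0.73.

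Loci in Ripk2, Slc2a1 and Ifrd1 rose with these hosts. Gm22690, in an intron of Ripk2, the kinase of NOD receptor signalling, went from 0, 7 and 2 counts to 20, 20 and 27, a log2 fold change of 3.30 ± 0.51 beside 3.66 ± 0.04 for Ripk2 (edgeR adjusted p = 1.79e-05 and 6.6e-22). Mir1957a, in Slc2a1, the glucose transporter GLUT1, went from 6, 8 and 7 counts to 41, 32 and 30, a log2 fold change of 2.74 beside 2.53 for the host. Mir1938, in Ifrd1, went from 34, 24 and 22 counts to 140, 164 and 143. Its log2 fold change of 2.95 ± 0.17 was below that of Ifrd1 at 3.89 ± 0.04. Per 1000 counts of Ifrd1 it fell from 26.2, 22.1 and 17.7 in PBS to 10.9, 13.0 and 10.7 in LPS, without overlap.

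The ratio of locus to host counts within a library does not depend on the scaling of libraries. It was compared for 60 loci by a two-sided exact permutation test, which with 3 libraries against 3 cannot go below p = 0.1, and the lowest adjusted value was 0.2, so no ratio could pass. The ratio was higher in all LPS than in all PBS libraries for 14 loci, lower for 16 and overlapped for 30. Among 1375 loci of any kind that are nested in a tested host, 60.6% did not overlap, 24.9% higher and 35.6% lower in LPS, so the shares among miRNA loci were near or under this background.

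Among the loci that rose out of proportion to the host was Mir3109, in an intron of Anxa2, which encodes a calcium-dependent membrane-binding protein. Mir3109 (chr9:69456944-69457031, plus strand) held 37, 35 and 27 counts in PBS and 102, 98 and 109 in LPS, a log2 fold change of 2.11 ± 0.16 (edgeR adjusted p = 2.47e-09) beside 0.15 ± 0.03 for Anxa2. Per 1000 counts of Anxa2 it held 1.90, 1.99 and 1.52 in PBS and 7.06, 6.77 and 7.32 in LPS, 3.89-fold higher (permutation p = 0.1). Mir1942, in Plec, the gene of the cytoskeletal linker plectin, went from 7, 1 and 2 counts to 22, 17 and 16, a log2 fold change of 2.88 ± 0.47 (edgeR adjusted p = 3.11e-05), beside 0.94 for Plec. Mir6353, in Pid1, went from 51, 61 and 55 counts to 123, 135 and 106, a log2 fold change of 1.59 beside 0.17 for Pid1. These 3 hosts changed less than the loci within them.

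Other loci that rose beside a host with a smaller fold change were Mir3092 in Fndc3b, with a log2 fold change of 1.93 beside 0.48, Mir98 in Huwe1, a ubiquitin ligase gene, with 1.49 beside 0.55, and Mir1931 in Cdk17, with 1.93 beside 1.13. Gm23134, in an intron of Blcap, rose by 2.41 beside 1.51, and it lies opposite an exon of Nnat. Gm25071, in Atp9b, rose by 2.46 beside 0.25, and has near-identical copies in 4 other genes. The smallest called rises were those of Mir7043 in Rassf4, at 1.06 ± 0.37, Mir5098 in Rest, at 1.21 ± 0.37, Mir744 in Map2k4, at 1.23 ± 0.30, Mir5107 in Cd74, at 1.29 ± 0.26, and Gm23053 in Mtpn, at 1.30 ± 0.55 (log2 fold change, SE). Each was lost with library size alone, and Gm23053, with 9, 0 and 15 counts in PBS and 19, 9 and 15 in LPS, overlapped between groups. Of the 5 loci on an exon of the host, 4 were called higher, beside 10.5% of all genes. Reads on these rows can also overlap the host exon, and how such reads were counted is not known. Gm47282 in Ampd3, which encodes an AMP deaminase, went from 4, 6 and 2 counts to 30, 21 and 12, a log2 fold change of 2.82 ± 0.46 beside 1.53 for Ampd3 (edgeR adjusted p = 3.2e-05 and 4.81e-17).

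The 6 loci with a host that fell lay in hosts that were not called. Mir339 (chr5:139369650-139369745, minus strand), in the coding gene 3110082I17Rik, went from 45, 34 and 39 counts in PBS to 2, 4 and 3 in LPS, a log2 fold change of -3.20 ± 0.37 (edgeR adjusted p = 4.52e-07). With so few LPS counts, the SE can understate counting error. The host held 348, 343 and 374 counts in PBS and 225, 226 and 225 in LPS, a log2 fold change of -0.18 ± 0.08 (adjusted p = 0.0604). Per 1000 host counts, Mir339 held 129, 99.1 and 104 in PBS and 8.89, 17.7 and 13.3 in LPS.

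Mir3971 (chr11:75551429-75551511, plus strand), in an intron of the amino acid transporter gene Slc43a2, went from 52, 44 and 67 counts to 4, 7 and 4, a log2 fold change of -2.94 ± 0.33 (edgeR adjusted p = 3.69e-07). Slc43a2 had a log2 fold change of 0.08 ± 0.03 with 19810 to 26567 counts per library. Mir6374 (chr6:83400996-83401102, minus strand), in Tet3, a 5-methylcytosine dioxygenase gene, went from 24, 18 and 23 counts to 6, 1 and 2. Its log2 fold change was -2.34 ± 0.46 (edgeR adjusted p = 0.00024), while Tet3 had 0.73 ± 0.03, in the other direction. Groups were separate for both loci and for both hosts.

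Gm24816, in Iqsec1, an exchange factor gene for Arf GTPases, went from 18, 18 and 21 counts to 2, 4 and 5, a log2 fold change of -1.87 ± 0.41 (edgeR adjusted p = 0.000655). Mir6928, in Atp6v0a1, a gene of the vacuolar proton pump, went from 18, 17 and 16 counts to 2, 5 and 4, with -1.71 ± 0.42 (edgeR adjusted p = 0.00165). The hosts had log2 fold changes of 0.14 and 0.20. Snord43, a small nucleolar RNA by its name that the annotation types as a miRNA, lies in the ribosomal protein gene Rpl3 and went from 119, 104 and 127 counts to 36, 34 and 35, with -1.26 ± 0.16 (edgeR adjusted p = 1.34e-06) beside 0.14 for Rpl3. In the same direction, but under the threshold of size, were Gm24273 in Srgap2, at a log2 fold change of -0.98, Mir342 in Evl, at -0.95, and Mir99a in Mir99ahg, at -0.73. These 3 were past an absolute log2 fold change of 1 with scaling by library size alone, at -1.39, -1.35 and -1.13.

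**Figure D4:**
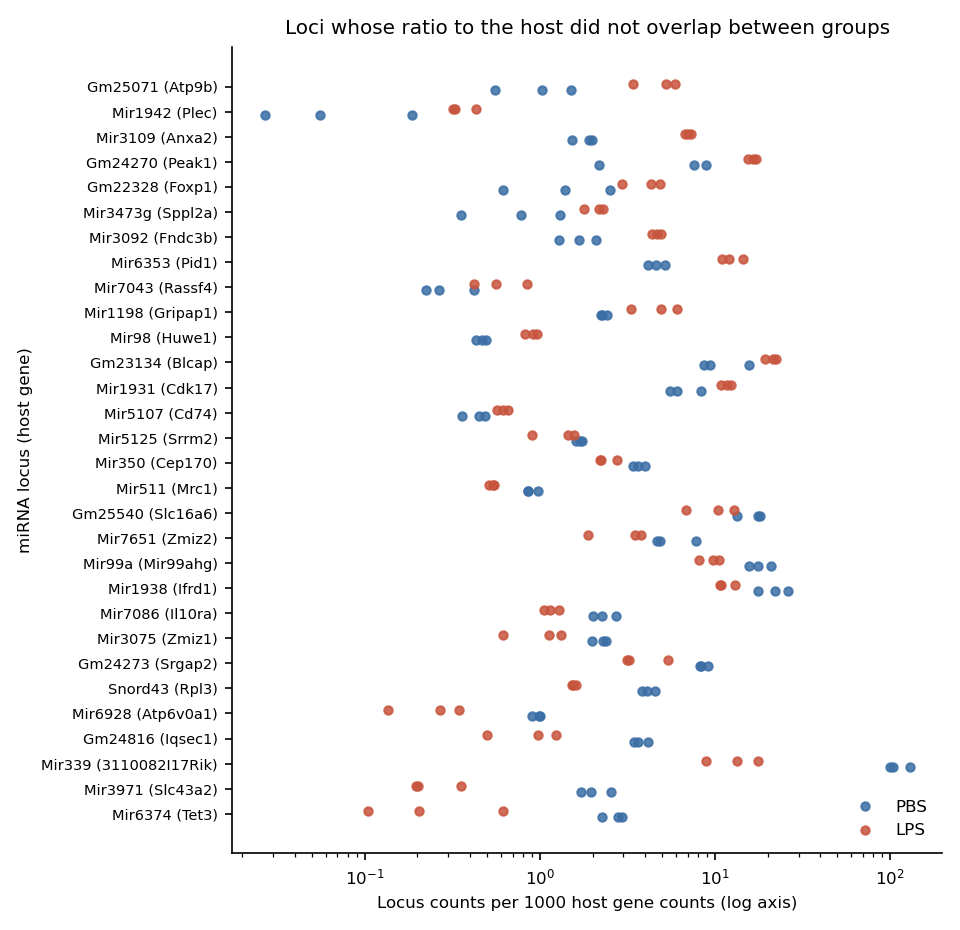
Counts of a miRNA locus per 1000 counts of its host gene (log axis), with a point for each library, blue for PBS and red for LPS (n = 3 each), for the 30 loci whose ratios did not overlap between groups; labels give the locus and, in brackets, the host. The upper 14 loci have the LPS points to the right and the lower 16 have them to the left, with Mir339, Mir3971 and Mir6374 the farthest.

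By position in the host, the 22 intronic loci called higher began at a median of 20709 bp from the start of the host (828 to 194296 bp), the 6 called lower at a median of 39435 bp (8914 to 307165 bp) and the 28 not called at 32185 bp (1287 to 565889 bp). The ranges of the sets overlapped widely. As a share of the host's length, the medians were 53.7%, 61.6% and 67.6%.

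Mir142, the gene of a miRNA known from blood cells, held 103, 161 and 142 counts in PBS and 58, 79 and 58 in LPS. Its log2 fold change was -0.59 ± 0.18 (SE, edgeR adjusted p = 0.00939), which passed the adjusted p but not the threshold of size. The host Mir142hg was lower too, with 621, 736 and 711 counts in PBS and 288, 269 and 262 in LPS, a log2 fold change of -0.87 ± 0.09 (adjusted p = 7.99e-08). The normalized values of Mir142 overlapped between groups, and those of Mir142hg did not. Mir511, in an intron of Mrc1, the mannose receptor gene of macrophages, had a log2 fold change of -0.35 ± 0.24 (adjusted p = 0.212) beside 0.40 ± 0.04 for Mrc1. Mirlet7c-1 and Mir99a lie in the same host, Mir99ahg, and had log2 fold changes of -0.10 ± 0.21 (adjusted p = 0.683) and -0.73 ± 0.25 (adjusted p = 0.0163).

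The locus with the highest counts, and the highest level per kb, was Gm23935 (chr16:11144125-11144181, plus strand), with 1733, 5526 and 5646 counts in PBS and 6858, 10331 and 9762 in LPS. Its log2 fold change was 1.52 ± 0.27 (SE, edgeR adjusted p = 8.01e-05). PBS replicate 1 was far below the other PBS libraries, also at Gm24270, with 18 counts against 68 and 61, at Gm24187, with 18 against 41 and 64, at Mir703, with 63 against 178 and 164, and at Gm26384, with 20 against 54 and 51. Gm23935, Gm24270 and Gm24187 are near-identical in sequence, each with copies in 5 other genes, and Mir703 and Gm26384 are near-identical to each other and to a stretch of transcripts of Eef1a1. Mir703 had a log2 fold change of 0.21 ± 0.27 (adjusted p = 0.513), which turned to -0.15 without PBS replicate 1. The values of these 5 loci are uncertain for that reason, and the part of the copies was not tested. PBS replicate 1 was also the lowest PBS library at some loci with no such copy, with 6 counts against 18 and 22 at Mir1898, 3 against 12 and 7 at Gm22328, and 5 against 17 and 11 at Mir3473g. At other loci with no such copy it was the highest, with 81 against 46 and 59 at Mirlet7c-1, 53 against 37 and 33 at Mir29a, and 28 against 9 and 20 at Mir674.

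Many miRNAs known for responses to LPS could not be read from their own row. Of the 37 genes on a list of such miRNAs, written with earlier results of these data known, 6 were among the loci described here. Of these, Mir146, Mir212, Mir221, Mir222 and Mir29a were called higher, beside 10.5% of all genes, and Mir142 was not called. Of the other 31 rows, 18 had no count in any library, and 17 of these lie under an exon of another gene on the same strand. How reads over several genes were counted is not known, so 0 counts in these 17 rows set no bound on RNA there. For the remaining row, Mir187, 0 counts allow up to 3 in each library. Of the genes over the 17 rows, C130071C03Rik (Mir9-2) and Gm28119 (Mir125b-1) held 4 and 2 counts in all, while those described next held far more.

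Mir155hg, the host of miR-155, held 1, 2 and 7 counts in PBS and 5572, 5180 and 5766 in LPS, a log2 fold change of 11.10 ± 0.11 (SE, edgeR adjusted p = 1.76e-22), while the row of Mir155 was at 0 in all 6 libraries. The PBS libraries were close to empty for Mir155hg, so the size of this rise is uncertain and its SE understates counting error. Mir17hg, the host of the Mir17 to Mir92-1 cluster, held 275, 215 and 241 counts in PBS and 675, 618 and 683 in LPS (1.91 ± 0.08, adjusted p = 2.05e-13), with its 6 miRNA rows at 0. Mir22hg rose by 1.84 on the log2 scale, and Vmp1, with an exon over Mir21a, by 1.28. Tlcd2, which also has an exon over Mir22, was at 0.12 ± 0.11 (edgeR adjusted p = 0.332). AA467197, over Mir147, was at 0.95 ± 0.18, and 2010111I01Rik, over Mir27b, at -0.09 ± 0.04, neither of them called. Spaca6, over the Mir99b, Mirlet7e and Mir125a cluster, rose by 1.43, and Mirlet7e, in its intron, held 3, 5 and 5 counts in PBS and 13, 17 and 7 in LPS.

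Other genes of this kind were lower in LPS. F630028O10Rik, over Mir223, a miRNA of myeloid cells, held 7455, 6781 and 7202 counts in PBS and 2549, 2218 and 2709 in LPS, a log2 fold change of -1.05 ± 0.05 (edgeR adjusted p = 6.15e-13). E130102H24Rik, over Mir101a, went from 288, 298 and 316 counts to 14, 21 and 15, a log2 fold change of -3.69 ± 0.16 (edgeR adjusted p = 4.68e-13). A430106G13Rik, over Mir181b-1, went from 29, 33 and 41 counts to 1, 9 and 5, a log2 fold change of -2.28 ± 0.41 (edgeR adjusted p = 9.69e-05). Gm4258, the host of Mir181b-1, was at -0.48 ± 0.20 (edgeR adjusted p = 0.0415) and was not called. For each of these genes, every LPS library was below every PBS library.

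**Figure D5:**
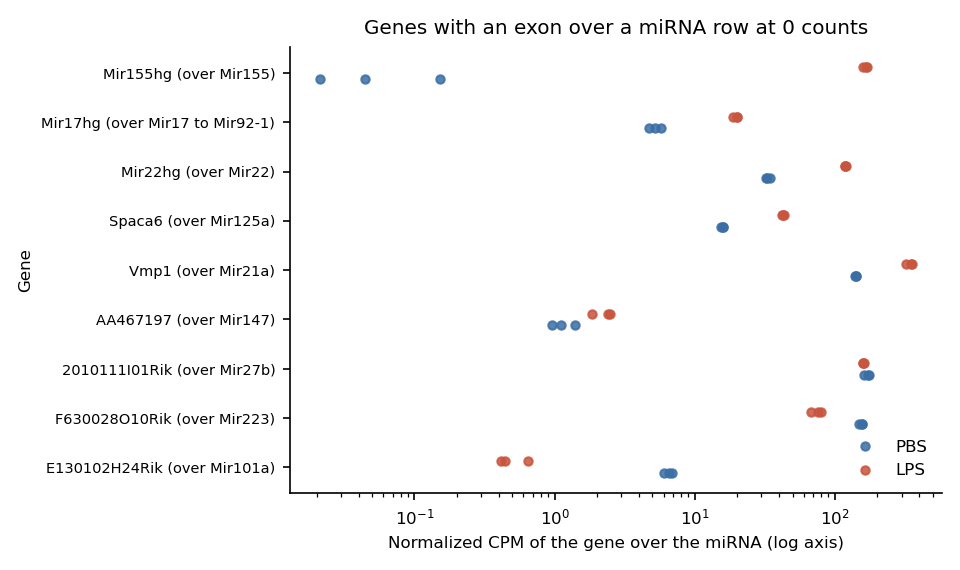
Normalized CPM (log axis) of 9 genes with an exon over a miRNA of the list whose own row was at 0 counts in all 6 libraries, with a point for each library, blue for PBS and red for LPS (n = 3 each). Mir155hg went from at most 7 counts in PBS libraries to at least 5180 in LPS libraries, and F630028O10Rik and E130102H24Rik were lower in LPS.

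The same split by place held over all miRNA rows inside well-covered genes, those with at least 6000 counts over the 6 libraries. Of 245 rows in a same-strand intron, 86.1% held a count, with a median of 20 counts. Of 125 rows on a same-strand exon, 19.2% held a count, with a median of 0. On the opposite strand, 22.1% of 68 rows in an intron held a count, with a median of 0, and 80.0% of 15 rows on an exon did, with a median of 7. Rows in introns were thus filled mostly on the strand of the gene.

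The genes that make and use miRNAs were read from the same fit. Of 30 genes on the list, 28 were tested, 2 were called higher and 0 lower by edgeR, beside 20.9% of all genes, and 26 passed the adjusted p alone, 17 higher and 9 lower, beside 67.7% of all genes. At an unadjusted p under 0.05, 17 were higher and 9 lower, a description, since the share of all genes at that p was not computed. Zc3h12a, which encodes the ribonuclease Regnase-1 that degrades cytokine mRNAs, held 843, 780 and 737 counts in PBS and 6813, 7031 and 6685 in LPS, a log2 fold change of 3.59 ± 0.05 (SE, edgeR adjusted p = 7.77e-21). Ago3, an Argonaute gene, was at 1.02 ± 0.04 (adjusted p = 5.08e-14), just past the threshold and not called with library size alone, upper quartile scaling, no filter beyond 1 count or without PBS replicate 2, and Ago2, the Argonaute with slicing activity, at 0.86 ± 0.03. Dgcr8, the partner of Drosha, went from 1399, 1346 and 1357 counts to 590, 555 and 620, a log2 fold change of -0.75 ± 0.05 (adjusted p = 3.21e-10). Drosha had 0.07 ± 0.06 (adjusted p = 0.351) and Dicer1 -0.22 ± 0.04 (adjusted p = 3.36e-05). With DESeq2 and limma voom, 2 genes were called higher and 0 lower as well, and with library size alone 1 and 1.

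At the count minimum, Mir98, Mir7663 and Mir3074-2 were just inside with 61 counts each. Just outside were Mir26b with 59 counts, Mir1955 with 58 and Mir132 with 53. Mir5104, with 52 counts, held 15, 13 and 18 in PBS and 1, 1 and 4 in LPS.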

How the data were processed

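Total RNA of 6 BMDM libraries was sequenced, 3 given PBS and 3 given LPS for 1 h; groups and replicate numbers came from the labels. The authors aligned paired-end reads to GRCm38 with HISAT2 2.1.0, used SAMtools 1.17 and FastQC 0.11.9, used featureCounts 2.0.0 for counting, and deposited the raw counts of 55335 genes. The annotation release, the strand setting and the treatment of reads that overlap several genes or map to several places are not given in the sources used here. All of these decide what a miRNA row inside another gene holds. The labels name no separate animals or cultures, so p-values measure the spread between these libraries, which may be technical.

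Identifiers were matched without version to GENCODE M21 on GRCm38 (55154 matched; coordinates from 1). A host was the same-strand gene that contains the locus, protein-coding genes first, then the longest. Counts were tested in R 4.3.3 with edgeR 4.0.16 (filterByExpr, TMM, quasi-likelihood, Benjamini-Hochberg over 15687 genes, no covariate), as the study describes pairwise comparisons, and calls needed an adjusted p below 0.05 together with a log2 fold change beyond 1 in either direction. Standard errors were the size of the log2 fold change divided by the square root of the quasi-likelihood F. They can understate counting error where a group held few counts. Locus to host ratios used log2 with a pseudocount of 0.5 and hosts with at least 10 counts per library. Counting intervals are exact at 95%, and a floor was 3 counts; both cover counting error only, since reads carry no molecular identifiers. Near-identical copies were found by BLAST against the GENCODE M21 transcripts. Functions were tested on simulated data.

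The labels call equal replicate numbers a batch, which pairs the libraries; deviations of same-numbered libraries correlated at -0.02, 0.09 and 0.04. Named loci are the 12 highest and 12 lowest log2 fold changes among the 41 called (the latter 7 falls and the 5 smallest rises), the 6 highest mean CPM, loci of the LPS-responsive list and those next to the count minimum, with hosts and called pathway genes. Others (Mir3109, Mir6353, Mir3092, Mir98, Mir1931, Gm24273, Mir342, Mir99a, Mirlet7c-1, Mir511, Mir23a, Mir27a, Mir24-2, Mir30b, Gm24270, Gm24187, Gm26384, Mir1898, Gm22328, Mir3473g and uncalled pathway genes) were chosen after their values were seen. The members and all lists were chosen with earlier results of these data known. Alternatives were DESeq2 1.42.0 size factors and test, limma 3.58.1 voom, other scalings and filters, the replicate block and leaving out each library.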

Additional observations from a re-analysis of the deposited data

How the results depend on the processing

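Of the 41 loci called, 34 were called under every setting in which they were tested. The exceptions were Mir29a, Mir5107, Mir744, Mir5618, Mir5098, Mir7043 and Gm23053, all lost with library size alone; Mir7043 and Gm23053 were also lost with upper quartile scaling, DESeq2 and several of the libraries left out, and Mir5098 without LPS replicate 2. Library size alone moved the median of all genes to -0.42 and upper quartile scaling to -0.16, so fold changes shift by about that much. With library size alone, 27 loci were higher and 13 lower, hosts were 6 higher and 1 lower, pathway genes 1 higher and 1 lower, and 2964 of all genes lower; Mir29a was at 0.99. With upper quartile scaling, 1 host was lower and 1 pathway gene higher. A filter of 10 counts in every library left 38 of the 78 loci, with 14 higher and 2 lower, and 1027 of all genes lower. Without a filter beyond 1 count, 1 pathway gene was higher. A count minimum of 30 gave 12 loci lower, and a minimum of 120 gave 16 higher and 4 lower. By adjusted p alone, 12 loci were lower. Without the 12 loci with near-identical copies, an alternative chosen after seeing the data, 30 were higher and 6 lower.

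Leaving out each library in turn gave 33 to 34 loci higher and 7 to 9 lower, 15 to 18 ratios higher and 16 to 19 lower, and 1 to 2 pathway genes higher, with Ago3 lost without PBS replicate 2. Mir703 turned to -0.19 with library size alone, -0.15 without PBS replicate 1 and -0.02 without LPS replicate 1, with 0.48 without PBS replicate 2 as the highest. The replicate block gave 34 loci higher and 7 lower, and within same-numbered pairs 19 ratios were higher and 19 lower; it called the same 41 loci, 11 hosts and 2 pathway genes, so it changed no call among these. Low depth limits most loci, since 26 of the 41 called held fewer than 10 counts in some library.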
